A study of Homo sapiens with 6 samples.

Results

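The replication-dependent histone genes and the histone variant genes were taken from the deposited count table as the protein-coding genes named HIST1H to HIST4H (the cluster histones) or H2AF, H3F or H1F (the variants). These names picked out 87 of 58735 genes, 71 cluster histones and 16 variants. RNA had been sequenced from A549 cells, a human lung adenocarcinoma line used as a model of alveolar epithelium, in 2 groups of 3 libraries, both labelled 48 h. The first group was treated with PQ (paraquat, a redox-cycling herbicide from which superoxide arises), and the second with PQ and SS-31, a small peptide that enters mitochondria and attaches to cardiolipin. Both groups therefore carried PQ, no untreated library was analysed here, and the doses are not given in the sources used here. Since the labels do not describe the replicates as separate cultures, the p-values below cover the spread among these libraries alone, and that spread may be technical.

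Cluster histone genes are transcribed mainly in S phase to supply nucleosomes for new DNA. Their messenger RNAs end just after a short stem-loop, which is bound by SLBP and matured with the help of the U7 small nuclear ribonucleoprotein, and usually carry no poly(A) tail. Variant histone genes lie outside the clusters and mostly make ordinary polyadenylated messages through the whole cell cycle. Some cluster genes can also make longer polyadenylated transcripts that read past the stem-loop.

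The stem-loop is shown first, because the message ends of the 2 classes differ by it. It was searched as a first stem arm GGCNCT, a loop TTTN and a second stem arm AGNGCC, joined without gaps (N is any base), on the sense strand of GENCODE 29 transcripts. It was present in 32 of the 87 genes (36.8%) and in 34 of 19684 genes with a protein-coding transcript (0.173%), and on the antisense strand in 0 genes. No match says only that these letters are not in the annotated transcripts. The sequences below belong to the cluster genes on which the values turn and to H2AFX, the only variant that had it. They are GENCODE 29 transcript sequence (GRCh38), 5′ to 3′, with the stem-loop in capitals and its flanking bases in lower case.
HIST1H2AC: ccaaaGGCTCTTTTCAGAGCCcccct
HIST2H2BE: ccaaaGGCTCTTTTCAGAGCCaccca
HIST1H2BC: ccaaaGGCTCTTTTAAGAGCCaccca
HIST1H2BD: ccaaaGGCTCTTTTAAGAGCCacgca
HIST1H4H: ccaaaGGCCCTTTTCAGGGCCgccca
HIST1H4I: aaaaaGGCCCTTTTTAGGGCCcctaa
H2AFX: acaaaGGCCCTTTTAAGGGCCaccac
The stem-loop of HIST1H2AC lies at chr6:26124669-26124684 on the plus strand, 43 bases after the stop codon, in the 3′ untranslated region. That of HIST2H2BE lies at chr1:149886188-149886203 on the minus strand, 56 bases after the stop codon. That of H2AFX lies at chr11:119094898-119094913 on the minus strand, 49 bases after the stop codon. HIST1H2AC and HIST2H2BE share the same 16 letters, as do HIST1H2BC and HIST1H2BD.

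The annotated models of several of these genes do not end at the stem-loop. The longest HIST1H2AC transcript runs on for 1128 bases, the HIST2H2BE transcript for 1729 bases and the longest H2AFX transcript for 1044 bases, and each gene has a transcript with a poly(A) signal, AATAAA or ATTAAA, near its end. The last 30 bases of such transcripts are shown for 3 stem-loop genes and for H2AFV, a variant with no stem-loop, with the signal in capitals.
HIST1H2AC: agcctggcatgaggtAATAAAaggtaatgc
HIST2H2BE: gttattAATAAAgttaccaattaatttaaa
H2AFX: gactaattttATTAAAggattgtttttttt
H2AFV: tgatggaATTAAAtatattctgtgtaaaaa
Over all genes with a protein-coding transcript, 16120 of 19684 (81.9%) had 1 of these signals in the last 50 bases of a transcript. The end shown for HIST1H2AC is at chr6:26139073-26139102, far downstream of the stem-loop and across an intron. A match to these letters is a description of the annotation and was not measured in the cells.

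The cluster histones yielded few counts, and most of their genes yielded almost none. Their 71 genes held 12911 counts over the 6 libraries together, against 132434 for the 16 variants. Of the 71, 16 had 0 counts in every library, 26 had 1 to 10 in all and 10 more had over 10 without passing the filter on low counts, which left 19 tested genes with 97.1% of the counts. Of the variants, 10 were tested, 2 had 0 counts (H1FOO and H2AFB2) and 4 had between 1 and 5 (H3F3C, H2AFB1, H1FNT and H2AFB3). A count of 0 in a library allowed a level of up to 0.174 to 0.190 CPM (counts scaled to the library total), the worth of 3 counts, and this limit and the intervals below cover counting error or library spread only.

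Counts differed by the annotated model. The 33 cluster genes annotated as coding sequence alone had a median of 2 counts, with 14 at 0, and none had a poly(A) signal. Such models hold no untranslated bases, where a signal would lie, so its absence follows from how the class was drawn. The 9 genes whose model ends within 100 bases of the stem-loop had a median of 4. The 22 genes whose model runs on for over 100 bases had a median of 83.5, none was at 0, 17 had a poly(A) signal, and they held 49.8% of all cluster counts. The 7 genes with untranslated bases but no stem-loop match had a median of 5. Longer models also have more bases on which a read can be counted, and the part of model length in these medians was not tested. HIST1H2BK and HIST1H1C were exceptions, with 2184 and 1961 counts on models of 381 and 642 bases without untranslated sequence. RefSeq gives HIST1H2BK a span of 8566 bases and HIST1H1C a span of 731, so HIST1H2BK may be an exception in this annotation alone. The run-on class also depends on the annotation. From start to end, RefSeq spans 519 bases for HIST1H2AC against 14972 here, and 409 against 8030 for HIST1H4H. It spans 493 against 2250 for HIST1H2AG, but 2224 against 2194 for HIST2H2BE.

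**Figure D1:**
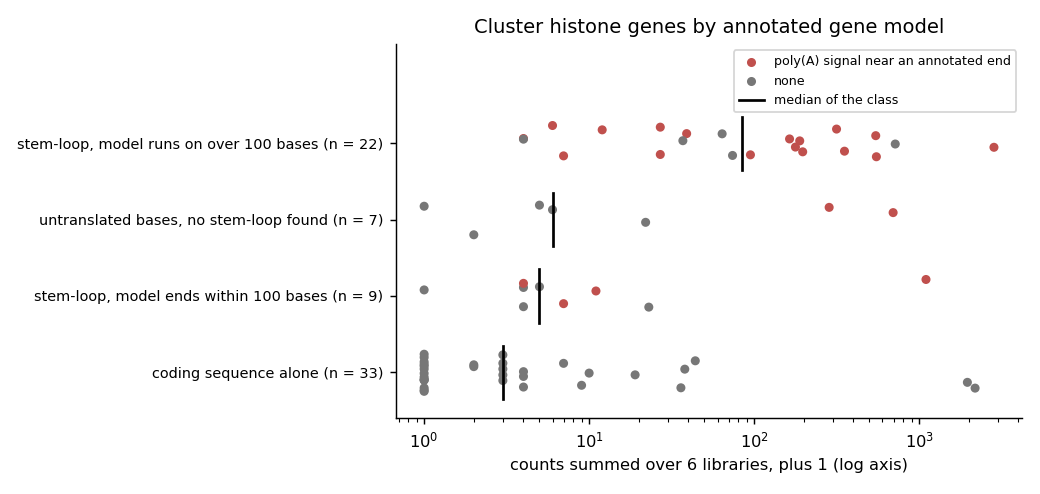
Counts of the 71 cluster histone genes, summed over the 6 libraries with 1 added, on a log axis, by class of annotated gene model; each point is a gene, red where a transcript has a poly(A) signal near its end, and the black bar is the class median. Genes whose model runs on past the stem-loop sit to the right of most coding-sequence models, apart from HIST1H2BK and HIST1H1C.

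A few genes carried most of the cluster signal. HIST1H2AC held 22.0% of the cluster counts, HIST1H2BK 16.9%, HIST1H1C 15.2% and HIST1H2BD 8.52%, together 62.6%. By location, the HIST1 cluster on chromosome 6 (55 genes, 14 tested) held 89.9%, the HIST2 cluster on chromosome 1 (12 genes, 2 tested) 6.62%, the HIST3 genes on chromosome 1 (3 genes, 2 tested) 3.03% and HIST4H4 on chromosome 12 0.488%. By protein, H2B genes held 40.04% (18 genes, 9 tested), H2A 26.1% (17, 3 tested), the linker histone H1 15.8% (6, 2 tested), H4 11.1% (15, 3 tested) and H3 7.002% (15, 2 tested). Nucleosomes take the 4 core histones in equal numbers, so these shares of counts are not shares of protein.

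Per kilobase of the deposited gene length, levels in descending order included H1FX at 67.3 CPM per kb, H3F3B at 61.0, HIST1H2BK at 56.6, H2AFZ at 54.8 and H3F3A at 44.6. Neighbours in this order overlapped in their ranges over the 6 libraries, down to the step from H3F3A to H2AFX at 32.4 CPM per kb. Those 2 neighbours did not overlap, but HIST1H1C, further down, reached 47.8, within the H3F3A range of 38.6 to 52.6. HIST1H1C stood at 30.04, H2AFV at 18.6, H2AFY2 at 18.4, HIST1H2AC at 16.9 and HIST1H2BD at 12.5 CPM per kb, each overlapping the next. H2AFY stood low on this scale, at 7.41, on a model of 17730 bases, and HIST1H2BK stood high on a model of 381 bases. Both places depend on these annotated models. HIST1H2BC, at 2.10 CPM per kb, did not overlap its next neighbour, and every gene after it in this order had a mean below 1 CPM per kb. HIST1H3B, further down, still reached 2.26, within the HIST1H2BC range of 1.61 to 2.86.

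Setting PQ+SS-31 against PQ addresses what SS-31 altered in cells given PQ. No histone gene of either class passed the threshold of edgeR's quasi-likelihood test, an adjusted p under 0.05 over 15550 tested genes, in either direction. Over all tested genes 0.129% were called higher and 0.463% lower, together 0.592%. At an unadjusted p under 0.05, 0 of 19 cluster histones were higher and 3 were lower (HIST1H2AC, HIST2H2BE and HIST1H2BE), and 1 of 10 variants was higher (H2AFV) and 1 lower, against 5.62% higher and 5.94% lower of all tested genes. The groups did not overlap for 3 cluster histones, all lower (HIST1H2AC, HIST1H2BE and HIST1H2BC), and for 3 variants, all higher (H3F3A, H2AFY and H2AFV), against 8.86% lower and 9.16% higher of all tested genes.

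Fitted log2 fold changes were negative for 15 of the 19 tested cluster histones and for 4 of the 10 tested variants, against 49.9% of all tested genes. Their median was -0.25 for the cluster histones (range -0.83 to 0.66) and 0.13 for the variants (range -0.31 to 0.22), while the median over all tested genes was 0.00. Fitted without the filter on low counts, 55 cluster histones had a median of -0.10. The 13 tested cluster genes whose model runs on past the stem-loop had a median of -0.44, with 11 negative, and the 3 of coding sequence alone a median of -0.09, with 2 negative. The 2 genes with untranslated bases but no stem-loop match had a median of 0.02, with 1 negative, and the 1 gene whose model ends near the stem-loop stood at -0.25. These medians describe the lists and were given no test.

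**Figure D2:**
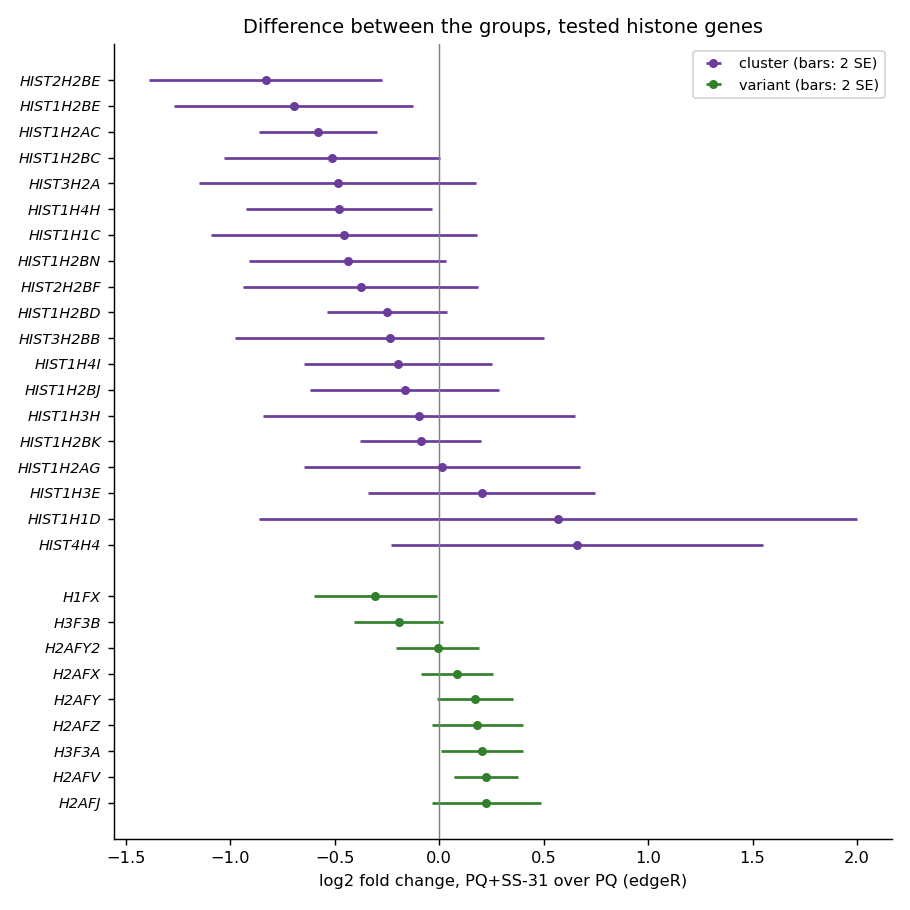
Fitted log2 fold change of PQ+SS-31 over PQ for the 19 tested cluster histones (purple) and 9 of the 10 tested variants (green), with bars of 2 standard errors. Most cluster genes lie left of 0 and most variants lie near or right of it, and no gene passed the adjusted threshold.

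Among the cluster H2A genes, HIST1H2AC (ENSG00000180573, chr6:26124145-26139116, plus strand, now named H2AC6) had the lowest p of all histone genes. Its level was 32.6, 31.3 and 37.2 CPM in PQ replicates 1, 2 and 3, and 27.0, 18.8 and 21.9 CPM in the PQ+SS-31 replicates of the same numbers, the order kept below. All 3 PQ+SS-31 libraries lay below all 3 PQ libraries. The mean was 33.7 ± 3.09 CPM with PQ and 22.6 ± 4.11 CPM with PQ+SS-31 (SD, n = 3 each), a log2 fold change of -0.58 ± 0.14 (SE) with an adjusted p of 0.136 in edgeR. The same gene passed the threshold with DESeq2 (adjusted p = 0.0241), which called 1.33% of tested genes lower, and in edgeR without the filter on low counts (adjusted p = 0.00224), where 0.783% of genes were called lower. Over all alternatives its adjusted p ranged from 0.00224 to 0.451. HIST3H2A stood at -0.48 ± 0.33 and HIST1H2AG at 0.01 ± 0.33 on the log2 scale, both with overlapping groups. Summed over all 17 cluster H2A genes, the level was 37.7, 35.9 and 44.4 CPM with PQ and 31.8, 22.4 and 28.1 CPM with PQ+SS-31, which did not overlap. HIST1H2AC gave 2842 of the 3375 counts of this sum, and the other 16 genes overlapped, at 5.10, 4.62 and 7.27 CPM with PQ and 4.80, 3.56 and 6.17 CPM with PQ+SS-31.

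The promoter of HIST1H2AC is shown because it is shared. It covers the 218 bases between HIST1H2AC and HIST1H2BC, an H2B gene that is transcribed the other way. The 300 bases run from 250 before to 50 after the RefSeq start (GRCh38.p14, chr6:26123922-26124221, plus strand), and capitals mark matches on either strand to TATAAA, to CCAAT and to the octamer ATTTGCAT.
HIST1H2AC: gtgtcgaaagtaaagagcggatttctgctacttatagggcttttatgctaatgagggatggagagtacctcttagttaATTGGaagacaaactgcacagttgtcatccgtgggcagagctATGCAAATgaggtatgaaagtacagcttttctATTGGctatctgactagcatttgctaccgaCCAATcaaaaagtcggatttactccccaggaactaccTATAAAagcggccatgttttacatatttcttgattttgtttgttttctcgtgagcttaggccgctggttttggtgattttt
RefSeq promoters of the same length were matched for 68 of the 87 genes. The octamer, known as a binding site of the factor POU2F1, was in 24 of 57 cluster promoters (42.1%), in 1 of 11 variant promoters and in 1.77% of 35116 promoters of all genes. TATAAA was in 37 of 57 cluster promoters (64.9%), in 4 of 11 variant promoters and in 11.5% of all, and CCAAT was in 47 of 57 (82.5%), in 9 of 11 and in 34.6% of all. AAACACA, searched as the H1 box of linker histone promoters, was in 9 of 57, in 1 of 11 and in 5.64% of all. These 9 included every cluster H1 gene (HIST1H1A, HIST1H1B, HIST1H1C, HIST1H1D, HIST1H1E and HIST1H1T). The others were HIST2H2AC, HIST2H3A and HIST2H3C. Each motif was counted separately on both strands, whether or not its matches shared bases with another. Promoters of divergent partners can overlap, as those of HIST1H2AC and HIST1H2BC do, and a shared site, such as their octamer, is then counted for both genes. These are therefore counts of genes and not of separate sites.

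HIST1H2BC had far fewer counts than its partner across this promoter, 177 against 2842, and it too lay lower in all 3 PQ+SS-31 libraries. It stood at 1.90, 1.90 and 2.38 CPM with PQ and at 1.45, 1.54 and 1.34 CPM with PQ+SS-31, a log2 fold change of -0.51 ± 0.26 (SE; edgeR adjusted p = 0.511). The ratio of HIST1H2AC to HIST1H2BC counts ranged from 15.6 to 17.2 with PQ and from 12.2 to 18.6 with PQ+SS-31, so it overlapped. Counts were also unequal across other divergent pairs. HIST2H2BE had 545 counts and HIST2H2AC 9 across 322 bases, and HIST1H2BK had 2184 and HIST1H2AH 2 across 330 bases, whereas HIST3H2A and HIST3H2BB (233 bases) had 315 and 73, and HIST1H2BJ and HIST1H2AG (291 bases) had 284 and 163.

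Of the H2B genes, HIST2H2BE had the most negative log2 fold change, -0.83 ± 0.28 (SE; edgeR adjusted p = 0.280). This gene (ENSG00000184678, chr1:149884459-149886652, minus strand) stood at 7.12, 4.74 and 8.78 CPM with PQ and at 5.15, 3.03 and 3.44 CPM with PQ+SS-31. The groups overlapped, since PQ replicate 2 lay below PQ+SS-31 replicate 1. HIST1H2BE stood at 1.78, 2.53 and 2.91 CPM with PQ and at 1.33, 1.72 and 1.40 CPM with PQ+SS-31, a log2 fold change of -0.70 ± 0.29 (SE; edgeR adjusted p = 0.396) from 196 counts in all. Its groups did not overlap, and 25.6% of its 100-base windows are shared with the antisense gene AL353759.1, so its counts are uncertain.

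The most abundant H2B genes lay closer together. HIST1H2BK stood at 21.8, 21.3 and 23.6 CPM with PQ and at 25.6, 19.2 and 17.9 CPM with PQ+SS-31, and PQ+SS-31 replicate 1 was the highest library of all 6. Its log2 fold change was -0.09 ± 0.14 (SE; edgeR adjusted p = 0.896), with an interval of 2 SE from -0.38 to 0.20. HIST1H2BD stood at 10.8, 11.4 and 13.3 CPM with PQ and at 10.8, 10.2 and 8.85 CPM with PQ+SS-31, with overlapping groups and a log2 fold change of -0.25 ± 0.14 (SE; edgeR adjusted p = 0.572). HIST1H2BN, HIST2H2BF, HIST3H2BB and HIST1H2BJ had log2 fold changes of -0.44, -0.38, -0.24 and -0.16, all with overlapping groups. The sequence of HIST1H2BK is shared in 28.4% of its 100-base windows, mainly with the near-identical H2BFS, so its count depends on how the authors treated reads with several matches.

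The ratio of HIST1H2AC to HIST1H2BK counts, 2 genes of the same cluster, did not overlap between the groups, a comparison chosen after its values were seen. It was 1.496, 1.47 and 1.57 with PQ and 1.05, 0.978 and 1.22 with PQ+SS-31. A ratio within a library does not depend on the scaling of the libraries, but it shows only that the 2 genes differed unequally.

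The H3 and H4 genes of the clusters were spread around 0. HIST1H3E stood at 5.04, 6.39 and 7.68 CPM with PQ and at 10.5, 5.52 and 5.94 CPM with PQ+SS-31, where replicate 1 alone exceeded the PQ range (log2 fold change 0.20 ± 0.27, SE; edgeR adjusted p = 0.863). HIST1H3H stood at -0.10 ± 0.37 on the log2 fold change scale. HIST1H4I stood at 7.42, 6.26 and 8.96 CPM with PQ and at 8.62, 5.88 and 5.24 CPM with PQ+SS-31, an overlap with a log2 fold change of -0.20 ± 0.22 (SE; edgeR adjusted p = 0.827). The log2 fold change of HIST1H4H was -0.48 ± 0.22 (SE, edgeR adjusted p = 0.465). That of HIST4H4, the lone cluster histone on chromosome 12, was 0.66 ± 0.45 (SE, edgeR adjusted p = 0.654) from 63 counts. Genes of the HIST2 cluster with near-identical copies were untested and their counts are uncertain, with HIST2H3A, HIST2H3C and HIST2H2AA3 sharing 100% of their windows. HIST2H4B was called higher in edgeR without the filter (log2 fold change 3.34, adjusted p = 0.0155), where 0.515% of genes were called higher. Of its 38 counts, 30 were in PQ+SS-31 replicate 1. It shares 97.1% of its windows, most often with HIST2H4A, which had 11 counts and a log2 fold change of -0.31 in the same fit.

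Linker histone messages of the clusters varied most between libraries. HIST1H1C, which encodes H1-2, stood at 22.1, 14.0 and 30.7 CPM with PQ and at 23.7, 11.3 and 13.8 CPM with PQ+SS-31. The spread inside each group exceeded the difference of the means, 22.3 ± 8.34 against 16.3 ± 6.55 CPM (SD, n = 3 each), and the log2 fold change was -0.45 ± 0.32 (SE; edgeR adjusted p = 0.669). HIST1H1D, which encodes H1-3, had 43 counts in all and a log2 fold change of 0.57 ± 0.72 (SE; edgeR adjusted p = 0.849). The value ranged from 0.11 without PQ replicate 2 to 1.68 without PQ replicate 3.

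**Figure D3:**
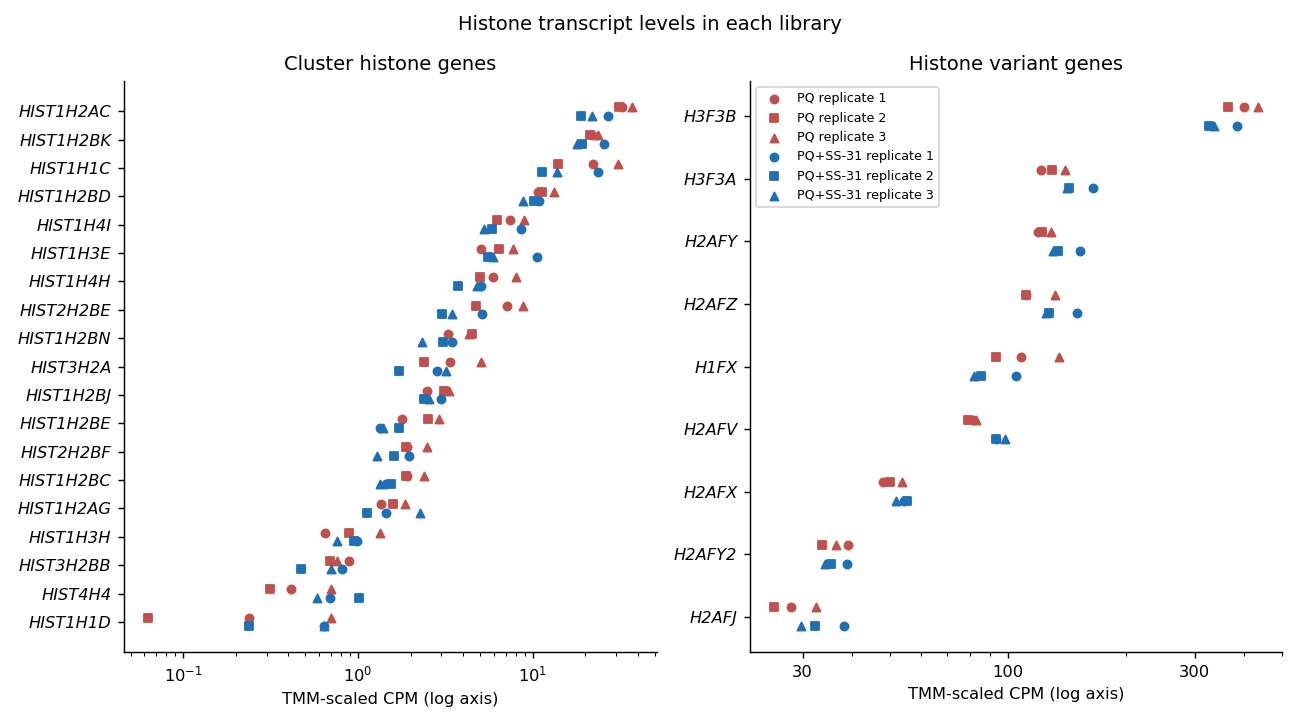
Level of the 19 tested cluster histones and 9 of the 10 tested variants in each library, in CPM scaled by TMM factors on log axes, with PQ in red, PQ+SS-31 in blue and the replicate number by marker shape. HIST1H2AC separates the groups with PQ+SS-31 lower. H2AFV, H3F3A and H2AFY separate them with PQ+SS-31 higher, H3F3A and H2AFY by narrow margins. PQ replicate 3 is the highest PQ library for 17 of the 19 cluster genes.

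Among the variants, 5 of the 6 tested H2A genes had the higher mean with PQ+SS-31, and H2AFY2 did not. H2AFV (ENSG00000105968, chr7:44826791-44848083, minus strand), which encodes 1 of the 2 forms of H2A.Z, a variant placed around transcription starts, stood at 81.6, 79.2 and 83.2 CPM with PQ and at 93.6, 93.2 and 98.3 CPM with PQ+SS-31. Every PQ+SS-31 library exceeded every PQ library, and the log2 fold change was 0.22 ± 0.08 (SE; edgeR adjusted p = 0.294). H2AFZ, which encodes the other form, stood at 112, 111 and 132 CPM with PQ and at 151, 127 and 125 CPM with PQ+SS-31, which overlapped (log2 fold change 0.18 ± 0.11, SE; edgeR adjusted p = 0.587). The ratio of H2AFZ to H2AFV counts overlapped between the groups, at a mean of 1.45 ± 0.12 for PQ against 1.42 ± 0.17 for PQ+SS-31 (SD, n = 3 each).

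H2AFY, which encodes macroH2A1, a variant with a large additional domain that is found in silent chromatin, stood at 119, 122 and 129 CPM with PQ and at 153, 134 and 130.4 CPM with PQ+SS-31. The groups did not overlap, by a narrow margin, and the log2 fold change was 0.17 ± 0.09 (SE; edgeR adjusted p = 0.532). H2AFX, whose protein is phosphorylated at DNA breaks, was at 0.09 ± 0.09 on the log2 fold change scale (edgeR adjusted p = 0.792). Its levels overlapped, at 50.7 ± 2.81 CPM with PQ and 53.8 ± 1.84 CPM with PQ+SS-31 (SD, n = 3 each). H2AFJ was at 0.22 ± 0.13 and the second macroH2A gene, H2AFY2, at -0.01 ± 0.10, both with overlapping groups. From start to end, introns included, H2AFY2 overlaps AIFM2 on the other strand by 14058 bases and H2AFY overlaps C5orf66 by 24320. In the transcripts, H2AFY2 shared 0% of its 100-base windows with other genes, and H2AFY 25.8%, most often with C5orf66. The sources used here do not say whether counting used the strand.

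H3F3A and H3F3B encode the same protein, the replacement histone H3.3, which is deposited outside replication. H3F3A (chr1:226061851-226072001, plus strand) stood at 122, 129.8 and 139.8 CPM with PQ and at 165, 144 and 142 CPM with PQ+SS-31. It was higher in every PQ+SS-31 library, by a narrow margin (log2 fold change 0.20 ± 0.10, SE, edgeR adjusted p = 0.483). H3F3B (chr17:75776434-75785893, minus strand) stood at 399.7, 363 and 435 CPM with PQ and at 385, 327 and 337 CPM with PQ+SS-31, with overlapping groups and a log2 fold change of -0.19 ± 0.11 (SE; edgeR adjusted p = 0.550). The 2 genes thus lay on opposite sides of 0, and neither passed the test.

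Because they lay apart, their ratio was computed after the values were seen, and it carries no test. H3F3A had 0.304, 0.357 and 0.321 counts per H3F3B count with PQ and 0.430, 0.440 and 0.421 with PQ+SS-31. The lowest PQ+SS-31 ratio exceeded the highest PQ ratio, and the mean was 0.327 ± 0.027 for PQ against 0.430 ± 0.0095 for PQ+SS-31 (SD, n = 3 each), a factor of 1.31. Their sum, the whole H3.3 message, overlapped between the groups, at 529.8 ± 41.5 CPM with PQ and 499.5 ± 43.8 CPM with PQ+SS-31. The processed pseudogene H3F3AP4 shares 10.3% of the 100-base windows of H3F3A, so part of that count depends on how shared reads were treated.

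H1FX, a variant linker histone gene, stood at 108, 93.4 and 135 CPM with PQ and at 105, 85.3 and 82.3 CPM with PQ+SS-31. The groups overlapped, and the log2 fold change was -0.31 ± 0.15 (SE; edgeR adjusted p = 0.486). Summed, the variant H2A genes were at 439 ± 24.1 CPM with PQ and 492 ± 31.8 CPM with PQ+SS-31 (n = 3 each, SD). This sum did not overlap, by a narrow margin, with PQ replicate 3 at 466.6 CPM and PQ+SS-31 replicate 3 at 469.5 CPM.

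Summed over whole classes, the groups overlapped for cluster histones and for variants. The 71 cluster histones summed to 134, 124 and 168 CPM with PQ and to 140.1, 97.0 and 102 CPM with PQ+SS-31. The means were 142 ± 23.1 against 113 ± 23.5 CPM (SD, n = 3 each), a log2 ratio of -0.33. The 16 variants summed to 1329.8 ± 108 CPM with PQ and 1285 ± 98.6 CPM with PQ+SS-31, a log2 ratio of -0.05. Without PQ replicate 3 the 2 log2 ratios were -0.19 and 0.004.

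For every 100 variant counts there were 10.06, 10.1 and 11.7 cluster counts with PQ and 10.01, 7.92 and 8.30 with PQ+SS-31. These groups did not overlap, but PQ+SS-31 replicate 1 lay only just below PQ replicate 1, and without HIST1H2AC they overlapped, at 7.57 to 9.09 for PQ and 6.38 to 8.08 for PQ+SS-31. The 22 cluster genes whose model runs on past the stem-loop summed to 69.9, 65.4 and 86.2 CPM with PQ and to 63.6, 45.9 and 50.1 CPM with PQ+SS-31, again apart by a narrow margin. This parting too rested on HIST1H2AC, without which the other 21 genes overlapped, at 34.1 to 49.1 CPM for PQ and 27.1 to 36.7 CPM for PQ+SS-31. In bulk samples fewer cells making a message and less of it in each cell cannot be told apart.

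**Figure D4:**
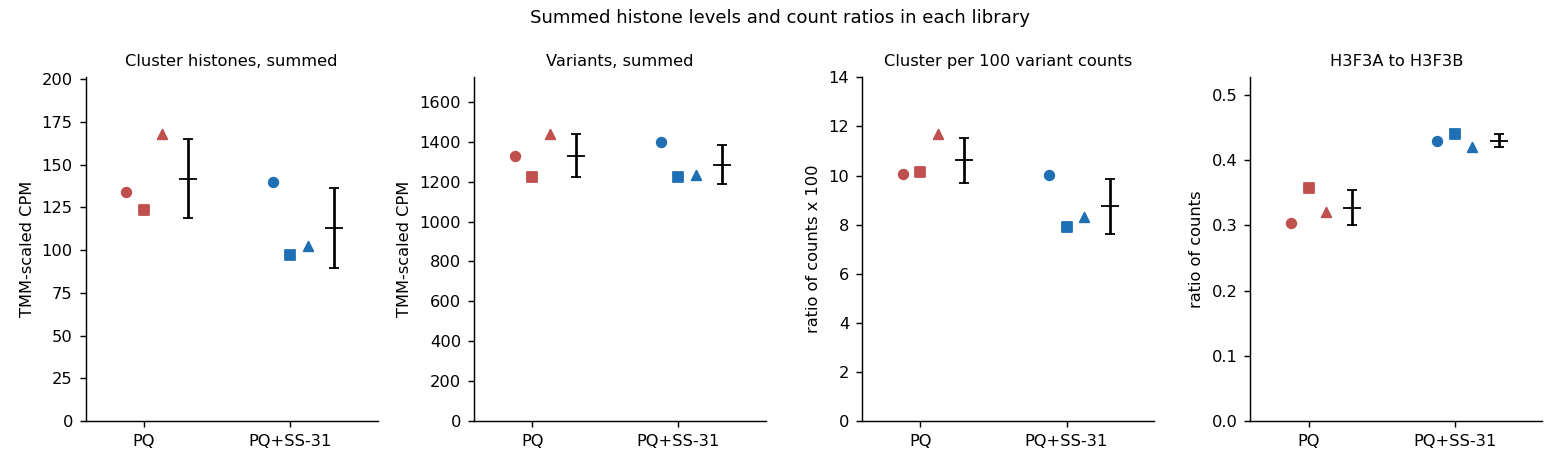
Summed levels of the 71 cluster histones and 16 variants in CPM, cluster counts per 100 variant counts, and the ratio of H3F3A to H3F3B counts, in each library (circle, square and triangle for replicates 1, 2 and 3), with the mean and SD in black. The sums overlap between PQ and PQ+SS-31, the class ratio parts by a narrow margin, and the H3F3A to H3F3B ratio parts clearly, at 0.304 to 0.357 against 0.421 to 0.440.

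The libraries of a group differed from each other in a way that most histone genes shared. PQ replicate 3 was the highest PQ library for 17 of 19 tested cluster histones and 8 of 10 variants, against 42.3% of all tested genes. PQ+SS-31 replicate 1 was the highest of its group for 13 of 19 and 8 of 10, against 35.4%. NEAT1, a nuclear RNA whose long form ends without a poly(A) tail, had levels of 220.3, 152 and 884 CPM across the PQ libraries and of 364, 200.2 and 437 CPM across the PQ+SS-31 libraries. MALAT1, another RNA with such an end, stood at 265, 338 and 444 CPM with PQ and at 303, 374 and 371 CPM with PQ+SS-31. Both RNAs were highest in PQ replicate 3, and their part in the histone values was not tested.

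Of 21 listed RNAs without an ordinary poly(A) tail, 13 were listed at 0 in every library, and only NEAT1, MALAT1 and RN7SL2 could be tested. None passed the threshold, with log2 fold changes of -0.33 ± 0.58, 0.00 ± 0.18 and 0.62 ± 0.34 (SE; edgeR adjusted p = 0.903, 0.9997 and 0.549). The value of NEAT1 ranged from -0.73 to 0.84 when 1 library was left out, and was positive only without PQ replicate 3. The sources used here do not say whether poly(A) RNA was selected.

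**Figure D5:**
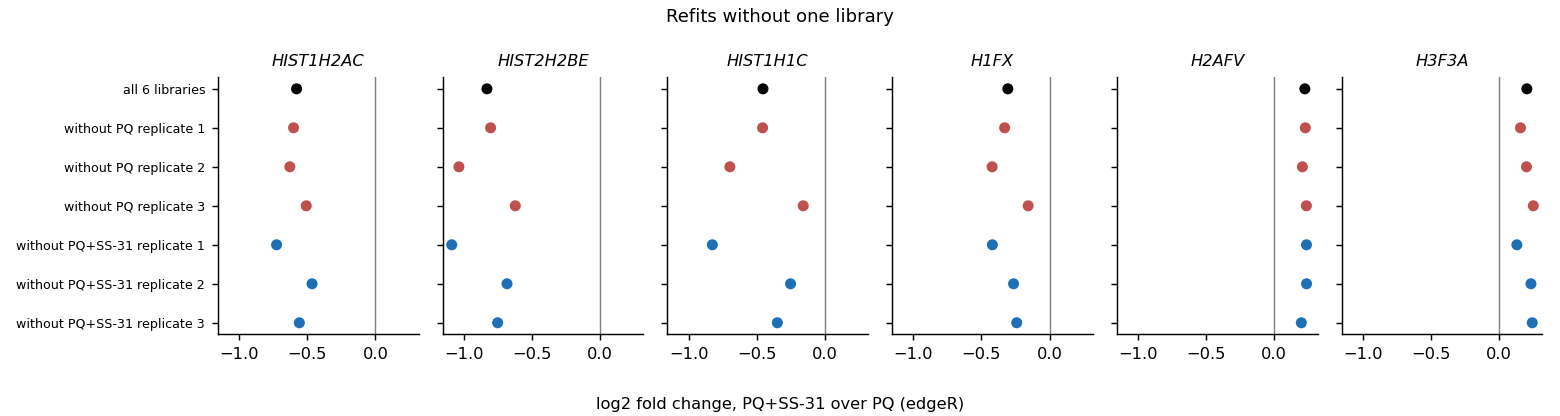
Log2 fold change of PQ+SS-31 over PQ for 6 histone genes with all 6 libraries (black) and after leaving out each PQ (red) or PQ+SS-31 (blue) library. All points of HIST1H2AC lie between -0.73 and -0.46 and all points of H2AFV between 0.20 and 0.24, while those of HIST1H1C range from -0.83 to -0.16.

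A list of genes that make, process and degrade histone messages was examined next. Of its 23 tested genes, 0 passed the threshold in either direction in edgeR, and at an unadjusted p under 0.05 there was 1 higher and 1 lower, against 5.62% and 5.94% of all tested genes. Their median log2 fold change was -0.03. SLBP, the stem-loop binding protein, was at -0.03 ± 0.14 on the log2 scale, and NPAT, the cofactor that drives histone gene transcription, at -0.12 ± 0.17. ZNF473, a zinc finger protein of the U7 processing complex, stood at 27.8 ± 2.43 CPM with PQ and 19.7 ± 1.32 CPM with PQ+SS-31 (SD, n = 3 each), a log2 fold change of -0.50 ± 0.11 (SE; edgeR adjusted p = 0.109). LSM11, another U7 component, was at -0.18 ± 0.11, and TUT7, which adds uridines to histone messages during their decay, at -0.25 ± 0.17. E2F1, an S-phase transcription factor, stood at 34.2 ± 1.85 CPM with PQ and 45.7 ± 1.72 CPM with PQ+SS-31 (SD, n = 3 each), a log2 fold change of 0.42 ± 0.09 (SE; edgeR adjusted p = 0.0936). Groups did not overlap for E2F1 (higher) or for ZNF473 and LSM11 (lower), against 9.16% higher and 8.86% lower of all tested genes. E2F1 and ZNF473 passed with DESeq2, which called 0.791% of tested genes higher and 1.33% lower.

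The chaperones that carry and deposit histones had mostly positive log2 fold changes, in 27 of 36 tested genes, with a median of 0.10. None passed the threshold in edgeR, and at an unadjusted p under 0.05 there were 10 higher and 0 lower, against 5.62% and 5.94% of all tested genes. HJURP, which places the centromeric histone CENPA, was at 0.46 ± 0.10 (SE; edgeR adjusted p = 0.0981). CENPA itself, an H3 variant outside the naming rule, stood at 8.78, 7.46 and 9.36 CPM with PQ and at 13.3, 10.7 and 11.9 CPM with PQ+SS-31, a log2 fold change of 0.49 ± 0.15 (SE; edgeR adjusted p = 0.236). CENPA was thus higher in all 3 PQ+SS-31 libraries without passing the adjusted threshold. CABIN1, a subunit of the H3.3 chaperone HIRA complex, was at 0.37 ± 0.10, and CHAF1A, the large subunit of the replication-coupled chaperone CAF-1, at 0.32 ± 0.10 (SE; edgeR adjusted p = 0.151 and 0.264).

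Genes of S-phase DNA synthesis rose in 2 of 40 tested cases and fell in 0, against 0.129% and 0.463% of all tested genes. At an unadjusted p under 0.05, 28 of the 40 were higher and 0 lower, against 5.62% and 5.94%, and the groups did not overlap for 28, all higher, against 9.16%. CCNA2, cyclin A2, was at 23.7 ± 1.08 CPM with PQ and 36.0 ± 1.04 CPM with PQ+SS-31 (SD, n = 3 each), a log2 fold change of 0.60 ± 0.09 (SE; edgeR adjusted p = 0.0302). TK1, the thymidine kinase of the S-phase nucleotide supply, was at 47.7 ± 0.55 and 65.7 ± 2.15 CPM (SD, n = 3 each), a log2 fold change of 0.46 ± 0.08 (SE; edgeR adjusted p = 0.0444). MCM7 and MCM5, subunits of the replicative helicase, were at 0.46 ± 0.08 and 0.49 ± 0.09 (SE; edgeR adjusted p = 0.0552 and 0.0696). Positive log2 fold changes were found in 38 of the 40 genes, with a median of 0.31, where the tested cluster histones had 4 of 19 and -0.25, and the difference between the lists was not tested. Leaving out any 1 library other than PQ replicate 3 left 0 of the 40 past the threshold, and leaving out PQ replicate 3 left 6.

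The labelled cell type was checked on marker genes. Epithelial markers summed to 3756 to 4005 CPM in the PQ libraries and 4594 to 5083 CPM in the PQ+SS-31 libraries, and leukocyte markers to 3.48 to 4.83 CPM and 6.05 to 6.60 CPM, with LYZ at 0. Both of these sums were higher in every PQ+SS-31 library, and their part in the histone values was not tested. Fibroblast markers summed to 11.3 to 18.4 CPM with PQ and 14.2 to 22.4 CPM with PQ+SS-31, and endothelial markers to 0.233 to 1.07 CPM and 0.174 to 0.713 CPM, both overlapping. CDKN2A, which is deleted in A549, had 0 counts. Library totals lay between 16332061 counts (PQ replicate 3) and 17576827 counts (PQ+SS-31 replicate 3).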

How the data were processed

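The authors deposited raw read counts per gene for 6 libraries in 1 table with gene lengths. The tools named are HISAT2 2.0.5, featureCounts 1.5.0-p3, DESeq2 1.20.0 and CASAVA, with no role stated, per the submitters' processing notes. The build named there is mm10, but the coordinates of all 58735 gene IDs are those of GENCODE 29, on GRCh38. The library kit, the strand setting and the treatment of reads with several matches were not given in the sources used here. Columns were matched to samples by group and replicate number, with 0 columns left unused.

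The filter was edgeR's filterByExpr. It kept 15550 genes, which were scaled with TMM factors and compared by the quasi-likelihood test (edgeR 4.0.16, limma 3.58.1, R 4.3.3), with Benjamini-Hochberg adjustment over all tested genes and a threshold of 0.05. CPM are relative to TMM-scaled library totals, and sums include untested genes. Every histone gene that passed the filter is named, except 1 that is not reported here. Of these, the 6 cluster histones and 4 variants with the most counts, and those with an unadjusted p under 0.05, are given by library, together with H2AFZ, H1FX and HIST1H2BC, chosen later. From the other lists, genes past the threshold and those with the 4 smallest p are named, with NEAT1, MALAT1, SLBP, NPAT and CENPA in any case. The genes and lists were chosen with earlier results of these data known. The alternatives were other scaling factors, filters and tools (DESeq2 1.42.0, limma-voom), a replicate block, protein-coding genes alone and leaving out each library. Sums without HIST1H2AC were chosen after seeing the data. In simulated data of 15550 genes at this depth, 49 of 100 genes with a 1.5-fold change and 91 of 100 with a 2-fold change were called. Replicates differed by more than sampling noise (chi-square per degree of freedom 6.88 to 32.2), so all 6 were counted. Stem-loops and poly(A) signals were searched in GENCODE 29 transcripts, and promoters came from RefSeq.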

Additional observations from a re-analysis of the deposited data

How the results depend on the processing

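No variant passed the threshold under any alternative. HIST1H2AC was called lower with no filter, with the replicate block and with DESeq2 (1 cluster histone each in the last 2 settings). No filter called 2 cluster histones lower (HIST1H2AC and HIST2H2BE) and 1 higher, HIST2H4B, with 30 of its 38 counts in PQ+SS-31 replicate 1. Over all genes, 20 were higher and 72 lower. Higher and lower calls were 156 and 237 with no filter, 123 and 207 with DESeq2, and 0 to 125 and 0 to 203 when 1 library was left out, with the highest values without PQ replicate 3. Higher calls were 13 with library size alone and 36 with protein-coding genes alone. S-phase genes called higher, 2 in the reported test, were 1 with library size alone, 7 with no filter, 9 with DESeq2 and 0 to 6 when 1 library was left out. Of the histone supply genes and RNAs without an ordinary tail, 1 was higher and 1 lower with no filter, 2 and 1 with DESeq2, and 0 to 3 and 0 to 1 when 1 library was left out. When 1 library was left out, the cluster median ranged from -0.44 (without PQ+SS-31 replicate 1) to -0.16, and the variants' log2 ratio of summed levels from -0.11 to 0.00439, above 0 without PQ replicate 3. Of 677 values of 46 named genes, 643 stayed on their side of the threshold, 23 newly passed and 11 no longer did. Leaving out 1 library turned the sign of the uncalled HIST1H2BK, HIST1H3E, HIST1H2AG, HIST1H3H and H2AFY2 and of NEAT1, MALAT1, SLBP and NPAT. The cluster median was -0.10 with no filter (55 genes) and -0.44 with a filter of 1 CPM in 3 libraries (15 genes). The cause of these shifts was not tested. The labels do not say whether replicate numbers pair the samples, and correlations among so few libraries cannot settle it. Same-numbered deviations correlated at -0.09, 0.39 and 0.19. The value of 0.39, for replicates 2, was the highest of all pairings, while PQ replicate 1 also correlated best with PQ+SS-31 replicate 2. With the replicate block, 66 genes were higher and 134 lower, 4 S-phase genes were higher and 1 cluster histone was lower.

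With 3 libraries a group, most cluster genes were too thinly counted for a test. A fold change of 1.5 or less would often be missed, even in better-counted genes.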
